A study of Mus musculus with 8 samples.

Results

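PBAF is a form of the SWI/SNF chromatin remodeling complex, and 4 genes encode the subunits found in PBAF but not in the other forms. These genes, *Pbrm1*, *Arid2*, *Brd7* and *Phf10*, were chosen by name among 21951 protein-coding genes of the GENCODE annotation of mm10 (release M21). Their promoters and gene bodies were searched for peaks of PBRM1 and BRG1 in 6 replicate lists and 2 pooled lists. In chromatin immunocleavage sequencing (ChIC-Seq), an antibody directs a nuclease to the chromatin that its antigen occupies, and the released fragments are sequenced. The study asked where PBRM1 and BRG1 bind directly in uterine stromal cells, with 3 replicates for each antibody. Stromal cells were isolated from the uteri of WT mice aged 8 to 12 weeks on day 4 (D4) and used as a primary culture, and all replicates of both antibodies share this genotype and time. The labels describe D4 both as pregnancy after mating and as pseudopregnancy, and give 5 to 10 uterine horns per isolation, so that a culture can pool several animals. The paper describes the replicates of its *Hand2* browser tracks, ChIC-Seq among them, as 3 biological replicates. No label says which replicates came from separate cultures, so that a p value measures the spread between these libraries, which may be technical. Cells were fixed in 1% formaldehyde for 5 minutes, 50000 per library according to the labels, and digested with the nuclease for 3 minutes. Libraries made with IgG, 2 in all, were not analysed here.

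SWI/SNF complexes use the energy of ATP to move or evict nucleosomes, and BRG1, encoded by *Smarca4*, is an ATPase of the complex. In PBAF, PBRM1 (BAF180) carries a row of bromodomains that bind acetylated histones, ARID2 (BAF200) carries an AT-rich interaction domain, BRD7 carries a bromodomain, and PHF10 (BAF45A) carries PHD fingers. BRG1 also belongs to the BAF and ncBAF forms, so that BRG1 can be present without PBRM1.

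The PBRM1 replicate lists held 21912 to 26363 peaks from 8868777 to 16505239 fragments, and the BRG1 replicate lists held 36656 to 40610 peaks from 11506964 to 14595089 fragments. The pooled lists held 55119 PBRM1 and 82669 BRG1 peaks. A promoter peak overlapped the 2000 bp on either side of any annotated transcription start site (TSS) of the gene by at least 1 bp. Where a promoter held several peaks, the one with the lowest q-value was taken as the strongest. Fold enrichments are the authors' MACS values, each relative to the local background of its own library. The strength of peaks was tested between the antibodies only by percentile within a list. Means and SDs of fold enrichment over replicates are descriptive. As a check of the labelled cell type, promoter peaks were counted at marker genes, and a peak is not expression. Of 10 stromal markers 6 had a promoter peak in all 6 replicates, among them *Vim*, *Hand2* and *Nr2f2*, against 1 of 10 epithelial markers (*Krt7*), 1 of 4 endothelial markers (*Kdr*), 0 of 5 immune markers and 51.9% of all protein-coding genes. The stromal share is thus near that of all genes. *Col1a1*, *Col1a2*, *Col3a1* and *Hoxa11* lacked a peak in at least 1 replicate, with none in the BRG1 replicates at *Col3a1* and none in the PBRM1 replicates at *Hoxa11*. Every BRG1 replicate had a promoter peak at 9 of the 10 stromal, 5 of the 10 epithelial, 3 of the 4 endothelial and 0 of the 5 immune markers. Over all protein-coding genes this share was 61.4%, so that the stromal and the endothelial shares were both above it.

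The promoters of the 3 members in the RefSeq promoter table (GRCm38.p6) are shown because their peaks lie in different places relative to the TSS. Each runs 5′ to 3′ in the direction of the gene, from 250 bases before the RefSeq TSS, and capitals mark matches to the strings searched.
*Pbrm1*, plus strand of chr14:31018888-31019187: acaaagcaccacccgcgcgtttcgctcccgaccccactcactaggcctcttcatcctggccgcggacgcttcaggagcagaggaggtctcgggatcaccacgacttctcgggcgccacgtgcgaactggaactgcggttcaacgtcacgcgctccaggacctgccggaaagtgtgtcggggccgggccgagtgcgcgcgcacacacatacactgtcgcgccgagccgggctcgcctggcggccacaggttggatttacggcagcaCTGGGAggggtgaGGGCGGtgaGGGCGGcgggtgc
*Brd7*, minus strand of chr8:88362123-88362422: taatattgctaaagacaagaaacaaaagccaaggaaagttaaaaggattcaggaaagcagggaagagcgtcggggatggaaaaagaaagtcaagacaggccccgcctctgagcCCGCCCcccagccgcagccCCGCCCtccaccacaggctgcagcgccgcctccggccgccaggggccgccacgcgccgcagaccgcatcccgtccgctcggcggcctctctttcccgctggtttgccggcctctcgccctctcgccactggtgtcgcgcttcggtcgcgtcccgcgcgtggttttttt
*Phf10*, minus strand of chr17:14961211-14961510: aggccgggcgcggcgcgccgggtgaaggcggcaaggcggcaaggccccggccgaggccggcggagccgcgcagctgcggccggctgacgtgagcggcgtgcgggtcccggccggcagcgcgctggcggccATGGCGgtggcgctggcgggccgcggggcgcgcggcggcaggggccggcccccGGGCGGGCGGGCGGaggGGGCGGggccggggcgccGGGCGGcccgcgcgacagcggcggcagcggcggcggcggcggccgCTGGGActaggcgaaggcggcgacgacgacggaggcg
All 3 windows are rich in G and C, at 68% for *Pbrm1*, 64% for *Brd7* and 87% for *Phf10*, against a median of 52.7% over the 32851 promoters of the table. The *Phf10* window was more G and C rich than 99.97% of these promoters and held 62 CpG dinucleotides, against a median of 7. The GC box GGGCGG, counted on both strands, was found at all 3 genes and in 35.7% of all promoters. It occurred at 2 positions in *Pbrm1*, after the TSS, at 2 positions in *Brd7*, before the TSS, and at 5 positions in *Phf10*, of which 3 form a run and overlap by 2 bases each. Of the 4 strings that the paper names as motifs, TCCCAG (motif 2) was found as its reverse complement at *Pbrm1* and *Phf10*, 15 and 13 bases after the RefSeq TSS, and in 31.8% of all promoters. CCAGGGCCT, GACCACT and TCGGTG, in 0.861%, 2.66% and 6.83% of all promoters, were in none of the 3 windows. ATGGCG, the core of the YY1 motif, was found at *Phf10* only, and in 8.93% of all promoters. The strings CCAAT (37.4% of all promoters), CCGGAAG of the ETS family (8.86%), CATGCGC of NRF1 (3.91%) and TATAAA (13.6%) were not in these windows.

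All 4 genes had a promoter peak in both pooled lists and in every BRG1 replicate. *Pbrm1* and *Arid2* also had a promoter peak in every PBRM1 replicate, whereas *Brd7* and *Phf10* had it in 2 of the 3. PBRM1 replicate 2, which had the most peaks, had none at the *Brd7* promoter, and PBRM1 replicate 3, the deepest library with the fewest peaks, had none at the *Phf10* promoter. Among all protein-coding genes, 67.7% had a promoter peak in both pooled lists, 61.4% in all 3 BRG1 replicates, 52.2% in all 3 PBRM1 replicates and 51.9% in all 6. The 4 of 4 with BRG1 and the 2 of 4 with all 6 lists are to be read against these shares, and with 4 genes the latter share is close to that of all genes. The pattern of *Brd7* and *Phf10*, with 2 PBRM1 and 3 BRG1 replicates, was shared by 1299 genes (5.92%). A list gives no value where no peak was called, so that signal below the threshold in those 2 PBRM1 libraries cannot be read. With a window of 500 bp, *Pbrm1* was the only member with a promoter peak in all 6 replicates, since the strong peaks of *Arid2* lie farther from its TSS.

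**Figure D1:**
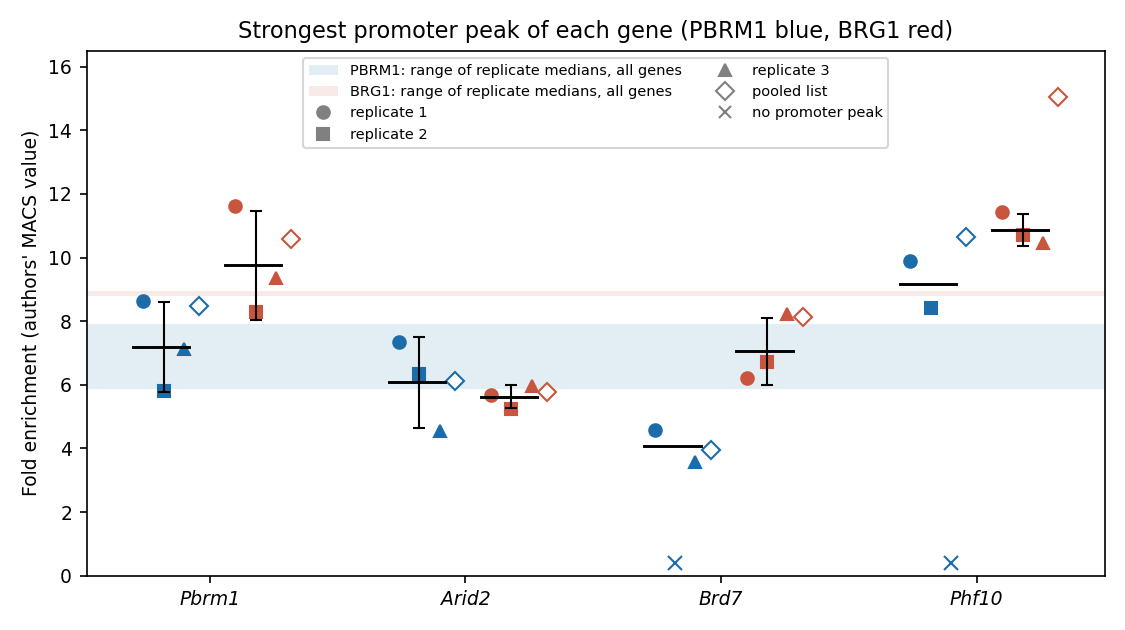
Fold enrichment (vertical axis, the authors' MACS value) of the strongest promoter peak of each gene. Filled points are replicates, open diamonds the pooled lists, black lines replicate means with SD where n = 3, crosses lists with no promoter peak, and shaded bands the range of the replicate medians over the 11388 protein-coding genes with a promoter peak in all 6 lists (5.86 to 7.92 for PBRM1, 8.80 to 8.94 for BRG1). *Brd7* has PBRM1 points at 4.59 and 3.56, the latter the lowest of all, and *Phf10* the highest pooled BRG1 value, at 15.0.

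*Pbrm1* (ENSMUSG00000042323.17) encodes the subunit that the PBRM1 antibody recognizes, and its own promoter was occupied in all lists. In mm10 the gene occupies positions 31019138 to 31121592 of chromosome 14, on the plus strand. The fold enrichment of its strongest promoter peak was 8.65, 5.81 and 7.14 in PBRM1 replicates 1, 2 and 3, a mean of 7.20 ± 1.42 (SD, n = 3). In the BRG1 replicates it was 11.6, 8.28 and 9.35, a mean of 9.76 ± 1.71 (SD, n = 3). The pooled values were 8.46 and 10.6. Both means lie near the medians of all genes with a peak in all 6 lists, which were 5.86 to 7.92 in the PBRM1 replicates and 8.80 to 8.94 in the BRG1 replicates. By q-value the peak stood at percentiles 75.8, 62.2 and 85.1 of the PBRM1 lists and at percentiles 94.5, 82.8 and 86.7 of the BRG1 lists. The ranges of the antibodies overlapped, and the difference of 13.6 percentile points between the means, 74.4 ± 11.5 in the PBRM1 replicates against 88.0 ± 5.96 in the BRG1 replicates (SD, n = 3 each), was not significant (two-sided exact permutation test, p = 0.2, where 3 against 3 cannot give less than 0.1). Across the 11388 genes with a peak in all 6 lists the median of the same difference was 8.77 points, with quartiles of 2.29 and 17.0, so that *Pbrm1* lay within the quartiles. In 40% of these genes every BRG1 replicate ranked above every PBRM1 replicate, and in 2.76% the reverse held. The BRG1 lists hold more peaks than the PBRM1 lists, and a percentile depends on the length of its list. Among the 20000 strongest peaks of each list the difference at *Pbrm1* was 8.73 points. How much of the difference over all genes comes from list length was not tested.

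The summits of the antibodies at the *Pbrm1* promoter were in different places. The PBRM1 summits lay 217 to 207 bp before the first TSS in the 3 replicates, within 10 bp of each other. The BRG1 summits lay 61 to 7 bp before it. The ranges did not overlap, which was also the case for 23.9% of the 11388 genes. The pooled peaks nevertheless covered the whole printed promoter, from 426 bp before to 108 bp after the TSS for PBRM1 and from 478 bp before to 106 bp after for BRG1. In all 3 BRG1 replicates, and in no PBRM1 list, a second promoter peak was called, with its summit 403 to 426 bp after the TSS and fold enrichments of 5.94, 4.89 and 3.66. The promoter is shared with *Gnl3*, which encodes the nucleolar GTP-binding protein nucleostemin and is transcribed from the minus strand. Its first TSS lies 14 bp from that of *Pbrm1*, and the genes overlap by 15 bp, so that the peak cannot be assigned to either gene alone.

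**Figure D2:**
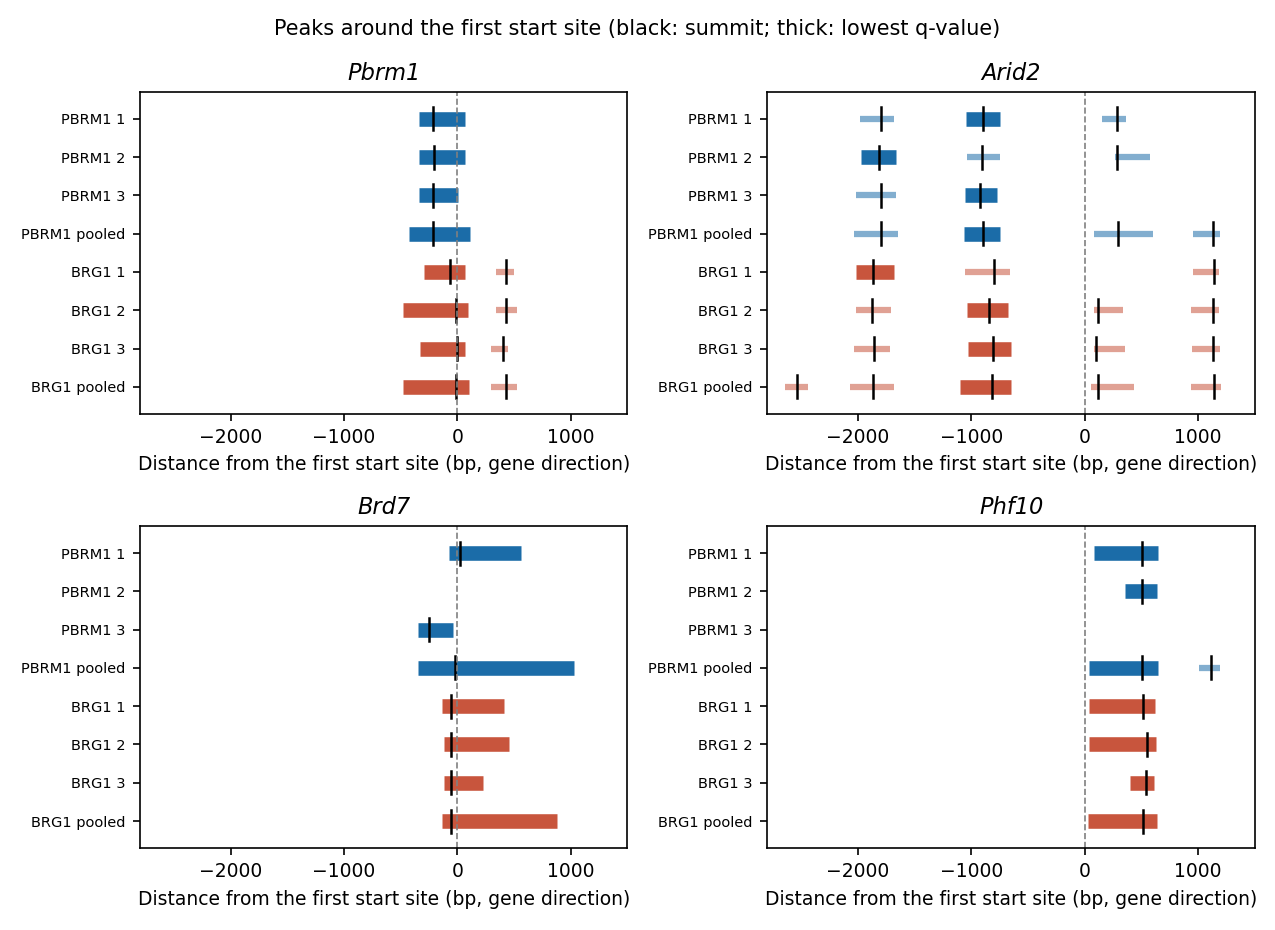
Peaks of the 8 lists around the first TSS of each gene, with the distance in bp in the direction of the gene on the horizontal axis (0 is the TSS, dashed). PBRM1 is blue and BRG1 red, thick bars are the peak with the lowest q-value, thin bars the other peaks, and black ticks the summits. At *Pbrm1* the PBRM1 summits lie to the left of the BRG1 summits, at *Arid2* the strongest peaks have summits 810 to 1869 bp before the TSS, and at *Phf10* all peaks begin inside the gene.

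*Arid2* (ENSMUSG00000033237.19) encodes the subunit with the AT-rich interaction domain and occupies positions 96287518 to 96404992 of chromosome 15, on the plus strand. Its strongest peaks lay upstream of the TSS, farther from it than those of the other members. In all 8 lists there was a peak with a summit 1881 to 1798 bp before the first TSS and another 925 to 798 bp before it. The strongest of these differed between lists, being the farther one in PBRM1 replicate 2 and BRG1 replicate 1 and the nearer one in the other 4 replicates. Weaker peaks followed the TSS. A peak with its summit 96 to 293 bp after it was called in 2 replicates of each antibody, with fold enrichments of 2.49 to 3.56. A peak with its summit 1129 to 1139 bp after the TSS was called in 3 BRG1 replicates, at 3.21 to 3.43, and in no PBRM1 replicate, although the pooled PBRM1 list had it at 2.98. The strongest promoter peak had a fold enrichment of 7.35, 6.35 and 4.54 in the PBRM1 replicates, a mean of 6.08 ± 1.43 (SD, n = 3), and of 5.69, 5.23 and 5.96 in the BRG1 replicates, a mean of 5.63 ± 0.371 (SD, n = 3). The pooled values were 6.13 and 5.76. The BRG1 values lay below the lower quartile of 7.08 to 7.15 over all genes with a peak in all 6 lists.

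The fold enrichment of *Arid2* was set against a high local background. The pileup at the summit was 29 to 49 fragments in the PBRM1 replicates and 49 to 63 in the BRG1 replicates, against 21 to 28 and 36 to 60 at *Pbrm1*. The background that MACS set against it, recovered from the pileup and the fold enrichment, was between 5.53 and 6.87 fragments in the PBRM1 replicates and between 8.23 and 10.2 in the BRG1 replicates. At *Pbrm1* it was 1.78 to 3.06 and 3.38 to 4.24, and at *Phf10* it was 0.817 to 1.26 and 0.962 to 1.36. The local background was computed over up to 10000 bp, a span that holds all *Arid2* peaks around the first TSS, and the share of the other peaks in it was not tested. The percentile by q-value was 90.3, 89.2 and 68.6 in the PBRM1 replicates and 84.8, 79.3 and 84.1 in the BRG1 replicates. The antibodies overlapped, and the means, 82.7 ± 12.2 and 82.7 ± 2.99 (SD, n = 3 each), differed by 0.0312 points (two-sided exact permutation test, p = 1). Without PBRM1 replicate 3 the difference was −7.02 points, BRG1 minus PBRM1 (exact permutation test, p = 0.2). Ranked among the promoter peaks of protein-coding genes alone, *Arid2* stood lower for BRG1, by −14.7 points (exact permutation test, p = 0.4). The lincRNA gene *2610037D02Rik* starts on the opposite strand at 96284495, 3023 bp from the first *Arid2* TSS. Its TSS is 1955 bp from the strongest pooled PBRM1 peak and 1918 bp from the strongest pooled BRG1 peak, both the nearer peak. The farther peak spanned 96285481 to 96285870 in the pooled PBRM1 list and 96285448 to 96285833 in the pooled BRG1 list. It lay closer to the TSS of the lincRNA gene than to that of *Arid2*, so that it cannot be assigned to *Arid2* alone.

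*Brd7* (ENSMUSG00000031660.13) encodes the bromodomain subunit BRD7 and lies on the minus strand of chromosome 8 from 88331039 to 88362194. Its promoter was the one with the weakest PBRM1 peak. In PBRM1 replicates 1 and 3 the fold enrichment was 4.59 and 3.56, and replicate 2 had no peak, so that the permutation test between the antibodies was left out. In the BRG1 replicates it was 6.23, 6.70 and 8.24, a mean of 7.06 ± 1.05 (SD, n = 3). The pooled values were 3.96 for PBRM1 and 8.12 for BRG1. The medians over all genes with a peak in all 6 lists, a set without *Brd7*, were 7.78 and 9.96. The PBRM1 peaks stood at percentiles 30.5 and 17.5 by q-value and the BRG1 peaks at percentiles 70.3, 72.6 and 79.7. Both PBRM1 values were thus below every BRG1 value, with means 50.2 points apart, against a median of 8.77 points over all genes with 6 lists. In 40% of those genes every BRG1 value was also above every PBRM1 value, with 3 values per antibody. *Brd7* is not one of those genes, since it lacks 1 PBRM1 list. The difference over the 1299 genes with its pattern of lists was not computed, so that how unusual *Brd7* is among them is not known. The direction was the same under each way of ranking that was tried, with 29.1 points when only promoter peaks of protein-coding genes were ranked. All 3 BRG1 summits lay at the same base, 56 bp before the first TSS. The PBRM1 peaks of replicates 1 and 3 overlapped each other by 39 bp only, and their summits, 19 bp after and 253 bp before the TSS, were 272 bp apart. The pooled PBRM1 peak was 1377 bp long, with a −log10 q of 9.12, and the pooled BRG1 peak 1021 bp.

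*Phf10* (ENSMUSG00000023883.13) encodes the PHD finger subunit and lies on the minus strand of chromosome 17 from 14945009 to 14961273. Its promoter peak had the highest pooled fold enrichment of the members for both antibodies. The fold enrichment was 9.91 and 8.42 in PBRM1 replicates 1 and 2, and replicate 3 had no peak. The BRG1 replicates had 11.4, 10.7 and 10.5, a mean of 10.9 ± 0.499 (SD, n = 3). The pooled values were 10.6 and 15.0, which put the pooled BRG1 peak at percentile 99.1 of its list by fold enrichment. The fold rested on few fragments over a low background, with a pileup of 17 and 18 in the PBRM1 replicates and 20 to 26 in the BRG1 replicates. By q-value, which takes the number of fragments into account, it stood at percentiles 74.0 and 72.2 for PBRM1 and at percentiles 81.4, 78.0 and 77.4 for BRG1. These values did not overlap, with 2 values for PBRM1. Among genes with a peak in all 6 lists, which leave out *Phf10*, 40% had every BRG1 value above every PBRM1 value. The difference of 5.87 points at *Phf10* was below their median of 8.77. It changed its direction when only promoter peaks of protein-coding genes were ranked (−4.78 points), so that no order of the antibodies is given for *Phf10*. The summits of all lists lay 505 to 550 bp after the first TSS. The pooled peaks began 40 and 33 bp after the TSS, and covered 23 and 30 of the 300 bases printed above. Most of that window, with 87% G and C, thus held no called peak. A second peak with fold enrichments of 7.08 to 10.4 in the 6 replicates lay 17664 to 18438 bp from the first TSS, beyond the 3′ end of the gene, and was not counted.

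**Figure D3:**
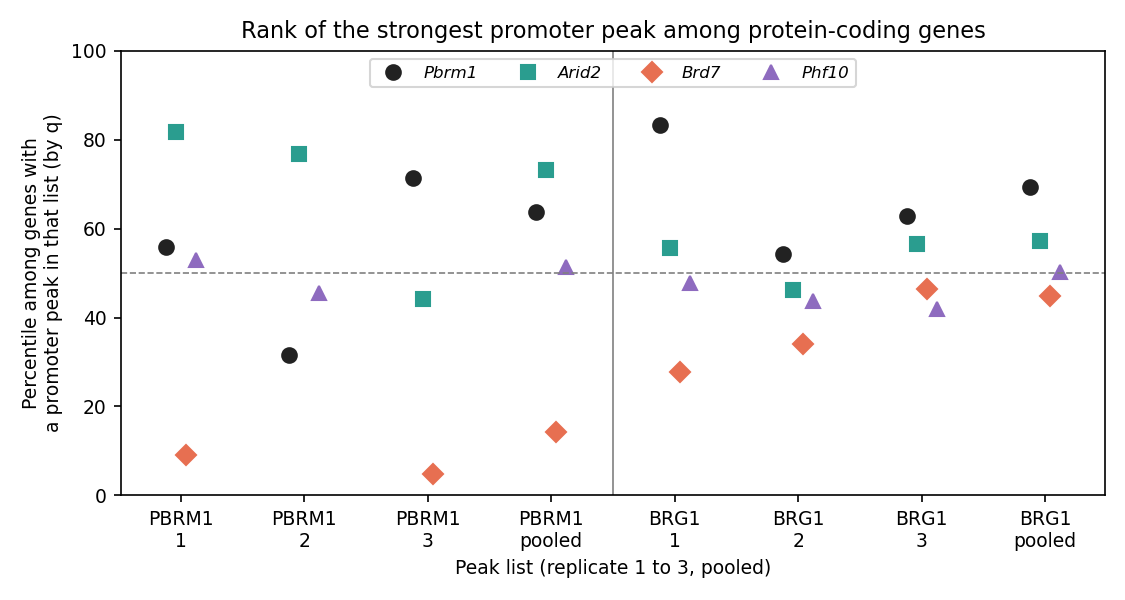
Percentile by q-value of each member's strongest promoter peak among all protein-coding genes with a promoter peak in that list (vertical axis), for the 8 lists (horizontal axis). The dashed line is the 50th percentile, and a missing symbol means that no promoter peak was called. *Brd7* lies at 4.76 to 14.3 in the PBRM1 lists and at 27.7 to 46.4 in the BRG1 lists, while the other members lie between 31.5 and 83.2 in all lists in which they were called.

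Within a list the members can be compared directly. *Phf10* was above *Arid2* and *Brd7* in fold enrichment in each of the 3 BRG1 replicates, with mean log2 ratios of −0.95 for *Arid2* to *Phf10* and −0.63 for *Brd7* to *Phf10*. *Pbrm1* was above *Arid2* and *Brd7* in all 3 BRG1 replicates, by 0.78 and 0.46 on the log2 scale on average, while *Pbrm1* and *Phf10* changed order between replicates. *Brd7* was above *Arid2* in all 3 BRG1 replicates, with the log2 ratio of *Arid2* to *Brd7* at −0.32 on average. In the 2 PBRM1 replicates with a *Brd7* peak, *Arid2* was above *Brd7* by 0.51. These orders are by fold enrichment. By q-value, in contrast, *Arid2* stood above *Brd7* in all 5 replicates that had both peaks, and above *Phf10* in every BRG1 replicate. Among protein-coding genes with a promoter peak, *Pbrm1* stood at percentiles 56.0, 31.5 and 71.4 in the PBRM1 replicates. The percentile of *Phf10* was 41.9 to 52.9 in the 5 replicates with a peak. *Brd7* was at percentiles 9.15 and 4.76 in the PBRM1 replicates and at 27.7, 34.0 and 46.4 in the BRG1 replicates.

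The genes whose 6 percentiles were most like those of a member were found by the Euclidean distance over the 6 replicate lists, among the 11388 genes with a peak in all of them. For *Pbrm1* the closest was *Gnl3*, at a distance of 0, because both genes are assigned the same peak. The next was *Gcdh*, encoding the mitochondrial enzyme glutaryl-CoA dehydrogenase, at 16.4 points, against a median distance of 69.4. For *Arid2* the closest were *Nek9*, encoding a mitotic kinase, at 7.62 points, and *Ccz1*, encoding a protein of vesicle trafficking, at 10.1, against a median of 68.5. Being the smallest of all distances, these values lie below the median by construction. Whether they are smaller than those between other genes and their closest genes was not tested. *Brd7* and *Phf10* were without a value in 1 list each and were not compared.

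The genes of the other SWI/SNF subunits were set beside the members. Of the 15 genes of subunits shared by more than 1 form of the complex, all had a promoter peak in all 6 replicates, against 2 of the 4 members. Among the 10 genes of BAF or ncBAF subunits, 9 had such a peak in all 6 replicates. The exception was *Arid1b*, which encodes an ARID subunit of BAF and had a PBRM1 peak in 2 replicates and a BRG1 peak in 3, as *Brd7* and *Phf10* did. These shares are to be read against the 51.9% of all genes, and no test of the lists was run. The median pooled fold enrichment was 7.30 for PBRM1 and 9.36 for BRG1 over the 4 members, and 6.94 and 8.95 over the shared subunits. It was 5.35 and 6.63 over the BAF or ncBAF subunits, and 7.78 and 9.96 over all genes with a peak in all 6 lists. That last set leaves out *Brd7*, *Phf10* and *Arid1b*. The highest pooled PBRM1 value among the other subunits was 11.9 at *Dpf2* and the lowest 3.50 at *Bicra*. For BRG1 the highest was 14.8 at *Dpf3*, just below *Phf10*, and the lowest 3.88 at *Arid1b*. *Smarca4*, which encodes BRG1, had pooled values of 8.39 and 11.2, close to the 8.46 and 10.6 of *Pbrm1*.

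Peaks outside promoters were counted in the gene bodies of the members. The pooled PBRM1 list had 2, of which 1 was in *Pbrm1* and 1 in *Arid2*, and the pooled BRG1 list had 6, of which 3 were in *Pbrm1* and 3 in *Arid2*. *Brd7* and *Phf10* had none, in genes of 31156 and 16265 bp. Among protein-coding genes of 100000 bp or more, to which *Pbrm1* and *Arid2* belong, 77.7% had such a PBRM1 peak and 84.5% such a BRG1 peak. Among genes of 10000 to 100000 bp, to which *Brd7* and *Phf10* belong, 34.9% and 46% did. The 4 peaks in *Arid2* had pooled fold enrichments of 3.12 to 3.99 and a peak in no replicate list. BRG1 replicates 1, 2 and 3 each had another peak in the *Arid2* gene body, at 4.03, 3.36 and 3.41, which was in no other list. A further *Arid2* site had its summits 89281 to 89308 bp after the first TSS. This site, with pooled fold enrichments of 5.93 for PBRM1 and 6.39 for BRG1, was found in 1 PBRM1 and 2 BRG1 replicates. It counted as a promoter peak only through the TSS of a short internal transcript, 1988 to 2015 bp from its summits, at the limit of the window. Inside *Phf10* the pooled BRG1 list had a peak 9035 bp after the first TSS, with a fold enrichment of 3.69. That peak likewise counted as a promoter peak through an internal TSS, 468 bp from its summit.

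A single gene-body peak of the members was supported by replicates, and it was in *Pbrm1*. It was singled out after its values were seen and is described without a test. The peak spanned 355 bp, from 31064824 to 31065178 on chromosome 14, and was present in all 8 lists. In the *Pbrm1-207* transcript, which has 31 exons, the summits of all lists lay in intron 17, and the first 28 bases of the peak were the last bases of exon 17 (31064746 to 31064851). The fold enrichment was 22.6, 23.8 and 23.8 in the BRG1 replicates, a mean of 23.4 ± 0.719 (SD, n = 3), which is above the BRG1 promoter peak of *Pbrm1* in each replicate. In the PBRM1 replicates it was 7.52, 7.14 and 6.35 (SD 0.595, n = 3), and the promoter peak was higher in replicates 1 and 3 and lower in replicate 2. The pooled values were 27.5 for BRG1 and 8.95 for PBRM1. By q-value the site ranked 46, 38 and 62 in the BRG1 replicates and 40 of 82669 in the pooled BRG1 list, the highest rank of any peak at the members. In the PBRM1 replicates it ranked 9724, 8974 and 8152, and 8504 of 55119 in the pooled PBRM1 list. The percentiles were 99.8 to 99.9 for BRG1 and 57.7 to 66.0 for PBRM1.

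The edges of this site were the same in every list. All 8 peaks ended at the same base, and they began at the same base in 7 lists and 1 base later in PBRM1 replicate 1. At the *Pbrm1* promoter, by contrast, the BRG1 peak was 366, 576 and 398 bp long in the 3 replicates. Of the 10544 pooled BRG1 peaks that overlapped exactly 1 peak in each of the 6 replicate lists, 2 (0.0190%) had edges that agreed within 1 bp over all of them, and this site was 1 of these. The summits inside it varied by 29 bp among the BRG1 and 248 bp among the PBRM1 replicates. The 355 bases matched the GRCm38.p6 genome at 1 place only, by blastn at an E-value of 1e-05. None of them was masked as a repeat, and 36.9% were G or C. The reference at both edges is shown because the edges are what sets the site apart, on the plus strand of chromosome 14, with the bases inside the peak in capitals.
Start of the peak, chr14:31064774-31064873: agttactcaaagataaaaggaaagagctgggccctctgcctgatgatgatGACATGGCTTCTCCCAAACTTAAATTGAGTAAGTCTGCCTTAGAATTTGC
End of the peak, chr14:31065129-31065228: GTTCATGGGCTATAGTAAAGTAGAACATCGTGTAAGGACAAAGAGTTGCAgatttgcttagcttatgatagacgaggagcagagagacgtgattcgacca
The stretch is thus a part of *Pbrm1* that reaches from the end of an exon into the following intron. The lists hold no reads, so whether the fragments came from chromatin or from other copies of this stretch, such as an amplicon or a construct, was not tested, and the fold enrichments of this site carry that limit.

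**Figure D4:**
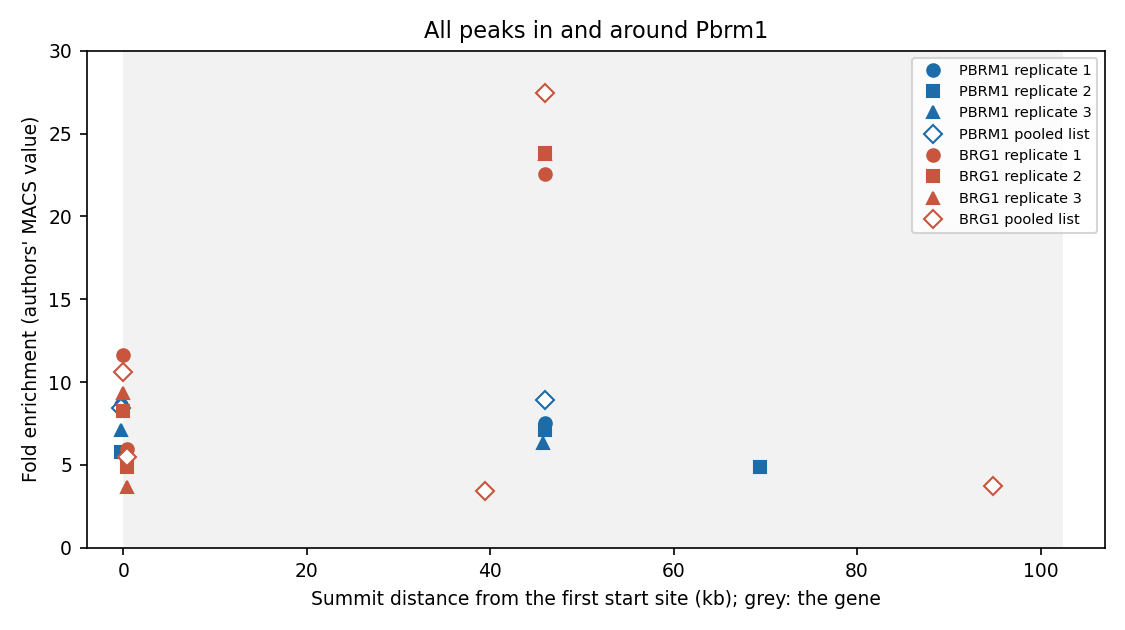
Fold enrichment (vertical axis, the authors' MACS value) of every peak in and around *Pbrm1* by the distance of its summit from the first TSS in kb (horizontal axis), for the 8 lists. The gene is shaded grey, PBRM1 is blue, BRG1 is red and open diamonds are the pooled lists. The BRG1 points of the intronic site, at 22.6 to 27.5, stand above all promoter points, while its PBRM1 points lie at 6.35 to 8.95, beside 5.81 to 8.65 at the promoter.

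The other gene-body peaks of *Pbrm1* were weak. The pooled BRG1 list had a peak with its summit in intron 15, with a fold enrichment of 3.42, and another with its summit in exon 28, at 3.71, and neither had a peak in any replicate. PBRM1 replicate 2 had a peak at 4.88 whose summit was 69440 bp after the first TSS and was in no other list.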

How the data were processed

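ChIC-Seq was performed on WT uterine stromal cells of D4 with PBRM1 and BRG1 antibodies, in 3 replicates each, grouped by their labels. According to the methods and the submitters' processing notes, the authors trimmed reads with cutadapt, aligned them with Bowtie2 to mm10 (GRCm38.p5 in the notes), and used MACS 2.2.7.1 to call peaks, once per replicate and once per antibody on the pooled replicates. According to the file headers, no control was given, the local background reached over 10000 bp, and the cutoff on q was 0.05. The deposited lists give a pileup signal, a fold enrichment and a −log10 q-value per peak, which are MACS output of the authors. Fold enrichment is the ratio of pileup plus 1 to local background plus 1, and the background was recovered from it. A list gives no signal outside peaks, and depth differs between libraries. Fold enrichments are thus relative to each library.

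Peaks were assigned to genes of GENCODE M21 in Python 3.11.15 (scipy 1.17.1, pandas 2.3.3, numpy 2.4.6, with plots by matplotlib 3.10.9). As a check of the code only, 1013 of 1013 promoter peaks planted in simulated data were found. Each simulated gene had a single TSS, so that genes with several were not covered. Percentiles within a list were compared with a two-sided exact permutation test. Sequences were read from RefSeq (GRCm38.p6), where 3 of the 4 members matched a promoter, and searched with blastn 2.17.0. All members, the genes sharing a promoter peak, the 2 likest genes of each member with a peak in all 6 lists and the extremes of the subunit lists were named. The members, lists and tests were chosen with earlier results of these data known. The intronic site of *Pbrm1* and the recovered background were chosen once their values had been seen. Alternatives were other promoter distances, TSS sets, peak choices, thresholds, ways of ranking, pairing by replicate number and each replicate left out. IgG libraries were not analysed here.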

Additional observations from a re-analysis of the deposited data

How the results depend on the processing

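Of 64 recomputed mean fold enrichments, 60 moved by less than 1 SD of the replicates. In 24 of these a replicate was left out, which cannot move the mean by 1 SD, and most of the remaining 36 were unchanged. The other 4 were at *Arid2*, where a window of 500 bp gave 3.03 for PBRM1 and 3.19 for BRG1, and the peak nearest to a TSS gave 3.53 and 4.01, because its strongest peaks lie farther upstream. The percentile difference (BRG1 minus PBRM1) kept its sign at *Pbrm1* and *Brd7* under all alternatives run, and leaving out a replicate moved it between 7.52 (without PBRM1 replicate 2) and 19.0 (without PBRM1 replicate 3) at *Pbrm1*. At *Brd7* it was 38.3 when ranked by pileup, 29.1 among promoter peaks of genes and 35.5 among the 20000 strongest peaks. At *Phf10* these were 11.7, −4.78 and −6.87. At *Arid2*, where the main difference was near 0, ranking by fold enrichment gave −4.62, promoter peaks of genes −14.7, the 20000 strongest peaks −13.0, and leaving out a replicate −7.02 (without PBRM1 replicate 3) to 3.83. No exact test passed 0.05, which 3 replicates against 3 cannot reach. Same-numbered replicates did not deviate together (r of −0.0113, −0.00744 and 0.0124 over 11388 genes). Pairs with unlike numbers gave r of −0.0153 to 0.0238. These values show no pairing by number but cannot exclude one, since no label names the cultures. With the replicate block the differences were 13.6 at *Pbrm1*, 0.0312 at *Arid2*, 50.98 at *Brd7* and 6.65 at *Phf10* (exact sign-flip test, p = 0.25, 1, 0.5 and 0.5, where 3 pairs cannot give less than 0.25 and the 2 pairs of *Brd7* and *Phf10* not less than 0.5), which changed no call.

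With a 500 bp window 1 member instead of 2 had a promoter peak in all 6 lists. Without PBRM1 replicate 2 *Brd7* joined them, and without PBRM1 replicate 3 *Phf10* did, which made 3. The gene-body peaks fell from 2 to 1 for PBRM1 and from 6 to 1 for BRG1 with a −log10 q of at least 5, or when found in at least 1 replicate or in all 3, which left the intronic *Pbrm1* site.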
